A study of Mus musculus with 18 samples.

Results

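The genes described are those of the NADPH oxidase and superoxide dismutase group, which were Nox1, Cybb, Cyba, Ncf1, Ncf4, Rac2, Sod1 and Sod2. Their rows were found in the raw count table by gene name, and all 8 were present among the 30530 genes of the table. All 8 passed the filter on low counts. They were followed across the 6 groups of an RNA-seq study of mouse bone-marrow-derived macrophages (BMDM), which are phagocytes grown in culture from bone marrow. The groups were C57BL/6 (B6) cells that received 25-hydroxycholesterol (25HC, 5 µM for 18 hours) followed by the lipopeptide Pam3CSK4 (PAM3, 300 ng/mL), Ch25h-/- cells with PAM3, untreated B6 cells with PAM3, B6 cells with 25HC at rest, Ch25h-/- cells at rest, and untreated B6 cells at rest. Each group held 3 libraries, which the labels number by mouse, and neither Ch25h-/- group received 25HC. 25HC is an oxysterol made from cholesterol by the enzyme that Ch25h encodes, and PAM3 is a synthetic ligand of Toll-like receptors 1 and 2. The labels give a stimulation time of 18 without a unit for PAM3 and 0 at rest. They do not state whether cells at rest were cultured as long, so PAM3 and time in culture cannot be told apart. No source used here gives the age or sex of the mice or how the Ch25h allele was made.

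The phagocyte NADPH oxidase moves electrons from NADPH across a membrane to oxygen and so makes superoxide, the first product of the respiratory burst with which macrophages and neutrophils attack microbes. Its membrane core pairs the catalytic subunit NOX2, encoded by Cybb, with p22phox, encoded by Cyba. On activation the cytosolic subunits p47phox (Ncf1) and p40phox (Ncf4), among others, join this core together with a Rac GTPase, and in blood cells Rac2 is a main form. Nox1 encodes another catalytic subunit, best known from colon epithelium, which also pairs with p22phox. Superoxide dismutases turn superoxide into hydrogen peroxide. Sod1 encodes the copper and zinc enzyme of the cytosol and Sod2 the manganese enzyme of mitochondria. Loss of CYBB, CYBA, NCF1 or NCF4 function in humans causes chronic granulomatous disease.

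In the GRCm38 build, with GENCODE M21 annotation, the oxidase genes lie on several chromosomes. Nox1 spans chromosome X from 134086421 to 134221956 and Cybb chromosome X from 9435252 to 9487771, both on the minus strand. Cyba spans chromosome 8 from 122424776 to 122432930 and Ncf1 chromosome 5 from 134220053 to 134229625, again on the minus strand. Ncf4 (78244801 to 78262580, plus strand) and Rac2 (78559167 to 78572783, minus strand) are both on chromosome 15. Sod1 spans chromosome 16 from 90220754 to 90226329 and Sod2 chromosome 17 from 13006846 to 13040063, both on the plus strand. Exons of Nox1 share 399 bases with exons of Cstf2 on the opposite strand, and exons of Ncf1 share 408 bases with Gtf2ird2 on the opposite strand. No source used here gives the strand setting of the counting, so reads from these stretches cannot be assigned with certainty. Over the 18 libraries Cstf2 held 31140 counts against 5273 for Nox1, whereas Gtf2ird2 held 7045 counts against 675580 for Ncf1. Nox1 values are therefore uncertain where they are low, and Cstf2 values are set beside them below.

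Total counts per library ran from 14.0 M to 150.4 M. Ch25h, the deleted gene, held 0 to 2 counts in the 6 Ch25h-/- libraries, against 76 to 1031 counts in the 12 B6 libraries. The 8 macrophage markers examined were present in every library, with Csf1r between 1388 and 7007 CPM (counts per 1e6 of a library size scaled by TMM). They summed to 26310 to 32930 CPM in 25HC-treated B6 with PAM3 and 44410 to 58050 CPM in untreated B6 with PAM3, and to 18670 to 20680 CPM in 25HC-treated B6 at rest and 24200 to 31430 CPM in untreated B6 at rest. The 10 neutrophil markers summed to between 28.5 CPM, in 25HC-treated B6 at rest, and 225.7 CPM, in Ch25h-/- with PAM3. Among them Csf3r ran from 25.3 to 218.8 CPM, and Mmp8 reached 45.9, Ngp 23.25 and Ltf 19.9 CPM at most. Ly6g was at 0 in 12 of 18 libraries and reached 0.137 CPM at most. Markers of dendritic cells summed to at most 5.44 CPM, of fibroblasts to 11.1, of B cells to 0.523 and of T cells to 0.0686 CPM. In bulk RNA, fewer cells of a type and less RNA per cell cannot be told apart. Replicate 2 of Ch25h-/- at rest lay farthest from its group, with a mean correlation of log2 CPM with the other libraries of the group of 0.958, where the other 17 lay between 0.972 and 0.995.

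**Figure D1:**
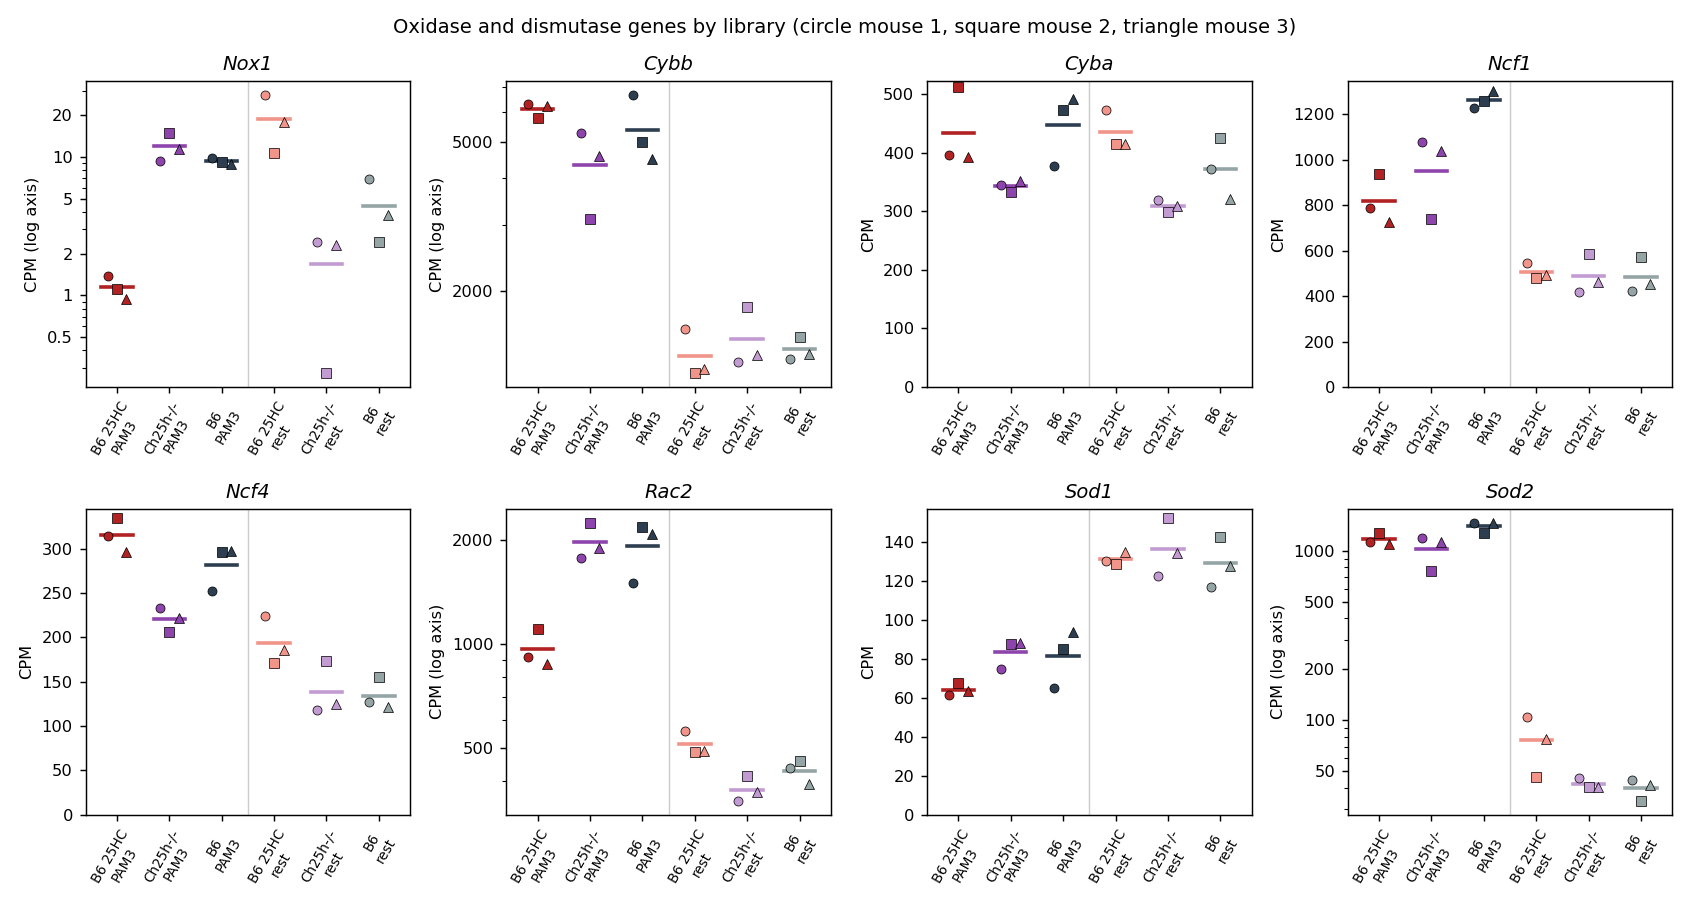
CPM of the 8 genes in each library, 1 panel per gene, with groups along the horizontal axis (25HC-treated B6, Ch25h-/- and untreated B6 with PAM3, then the same at rest). Circles, squares and triangles are mice 1, 2 and 3, bars are group means, and Nox1, Cybb, Rac2 and Sod2 have a log axis. Sod2 sits at 767 CPM or above in all 9 PAM3 libraries and at 105 CPM or below in all 9 libraries at rest, while Nox1 is highest in 25HC-treated cells at rest and lowest with 25HC and PAM3.

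Levels of different genes were compared as CPM per kilobase of the principal transcript. With PAM3, Cybb was highest in each of the 3 groups, at 1285 ± 61.2 CPM per kb in 25HC-treated B6, 911 ± 232 in Ch25h-/- and 1134 ± 238 in untreated B6 (SD, n = 3 each). In untreated B6 with PAM3 it was followed by Rac2 at 633 ± 120 and Cyba at 602 ± 82.4 CPM per kb, whose spreads overlapped, then Ncf1 at 464 ± 13.4, Sod2 at 239 ± 18.7, Ncf4 at 193 ± 17.6 and Sod1 at 127 ± 22.9. In untreated B6 at rest the order was Cyba at 501 ± 70.4, Cybb at 295 ± 21.4, Sod1 at 202 ± 20.2, Ncf1 at 178 ± 28.5, Rac2 at 141 ± 10.8, Ncf4 at 91.7 ± 12.6 and Sod2 at 6.81 ± 0.98 CPM per kb, and the spreads of Sod1 and Ncf1 overlapped. Nox1 was last in all 6 groups, between 0.45 ± 0.0862 CPM per kb with 25HC and PAM3 and 7.40 ± 3.41 with 25HC at rest. Together the 8 genes took 0.715 to 1.08% of all counts in PAM3 libraries and 0.282 to 0.389% in libraries at rest, on the scale of raw counts.

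PAM3 raised most of the group. In untreated B6, 6 of 8 genes rose and 1 fell, in a comparison in which 62.1% of the 12741 tested genes passed (31.3% higher and 30.8% lower). The same numbers, 6 higher and 1 lower, were obtained in Ch25h-/- cells, where 62% of all genes passed (29.9% higher and 32.1% lower). In 25HC-treated B6, 5 rose and 2 fell, and 58.9% of all genes passed (28.5% higher and 30.4% lower). The median log2 fold change of the 8 genes was 1.24 in untreated B6, 1.25 in Ch25h-/- and 0.70 in 25HC-treated B6, beside 0.00, -0.04 and -0.02 over all tested genes. Neutrophil markers summed to 204.3 to 213.9 CPM in untreated B6 with PAM3, against 41.6 to 87.5 CPM at rest, and Csf3r, which macrophages also express, made up most of this. Without Csf3r the sums of the other 9 were 12.7 to 46.9 CPM with PAM3 and 3.22 to 3.82 CPM at rest in 25HC-treated B6, 3.49 to 6.93 CPM with PAM3 and 12.8 to 48.8 CPM at rest in Ch25h-/-, and 2.68 to 5.08 CPM with PAM3 and 4.67 to 6.34 CPM at rest in untreated B6. They were thus higher with PAM3 in 25HC-treated B6 and lower with PAM3 in Ch25h-/-, without overlap, and their part in the PAM3 responses was not tested.

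Among the catalytic subunits, Cybb rose in every background. Its libraries held 6665, 4999 and 4506 CPM in untreated B6 with PAM3, against 1324, 1517 and 1366 CPM in untreated B6 at rest. Ch25h-/- cells held 5270, 3118 and 4594 CPM with PAM3, against 1296, 1819 and 1357 CPM at rest. In 25HC-treated B6 the values were 6309, 5775 and 6242 CPM with PAM3, against 1587, 1213 and 1241 CPM at rest. Each PAM3 library lay above each library at rest. The log2 fold changes were 1.94 ± 0.21 in untreated B6 (SE, quasi-likelihood test of edgeR, Benjamini-Hochberg adjusted p = 1.51e-06), 1.54 ± 0.20 in Ch25h-/- (edgeR adjusted p = 1.36e-05) and 2.18 ± 0.21 in 25HC-treated B6 (edgeR adjusted p = 6.47e-07). Cyba, which encodes the partner of both catalytic subunits, did not pass the test in any background. It averaged 448 ± 61.3 CPM with PAM3 and 373 ± 52.4 CPM at rest in untreated B6 (log2 fold change 0.26, 95% interval 0.00 to 0.52, edgeR adjusted p = 0.0957), and the intervals were -0.11 to 0.41 in Ch25h-/- and -0.26 to 0.26 in 25HC-treated B6. The call depended on single libraries, since Cyba passed without untreated B6 replicate 2 at rest (edgeR adjusted p = 0.0363) or replicate 1 with PAM3 (0.0257), and when replicate 2 of every group was left out (0.0483).

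Nox1 was the only member with a rise that passed in untreated B6 and a fall that passed in 25HC-treated B6. It held 9.83, 9.16 and 8.89 CPM in untreated B6 with PAM3, against 6.99, 2.41 and 3.82 CPM in untreated B6 at rest. In Ch25h-/- it held 9.40, 14.9 and 11.5 CPM with PAM3, against 2.43, 0.274 and 2.33 CPM at rest, where the second value is 4 counts. In 25HC-treated B6 it held 1.39, 1.12 and 0.948 CPM with PAM3 (79, 147 and 41 counts), against 28.1, 10.7 and 18.1 CPM at rest (710, 286 and 561 counts). The PAM3 and resting libraries did not overlap in any of the 3 backgrounds, with PAM3 on the upper side in untreated B6 and Ch25h-/- and on the lower side after 25HC. The log2 fold change was 1.09 ± 0.46 in untreated B6 (edgeR adjusted p = 0.0488), 2.79 ± 0.52 in Ch25h-/- (edgeR adjusted p = 0.000292) and -4.03 ± 0.51 in 25HC-treated B6 (edgeR adjusted p = 9.89e-06), a 16.4-fold lower level. The rise in untreated B6 lay close to the threshold and was lost without any 1 of 5 of its 6 libraries, at log2 fold changes of 0.79 to 1.13 and edgeR adjusted p between 0.0784 and 0.170, and it was kept, at 0.0127, without replicate 1 at rest. It was also lost with DESeq2 size factors (0.0542), without the filter on low counts (0.0841) and with a filter at 1 CPM in 3 libraries (0.0535). The rise in Ch25h-/- was 2.33 without replicate 2 at rest and 2.13 without replicate 2 of every group, and passed in both. Cstf2 had smaller log2 fold changes of the same sign as Nox1 in the 3 backgrounds, at 0.19 (edgeR adjusted p = 0.608), 0.70 (0.0647) and -0.79 (0.0399), and the 2 genes correlated across the 18 libraries, which share condition and depth, with r = 0.83. The part of Cstf2 reads in the Nox1 values was not tested.

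**Figure D2:**
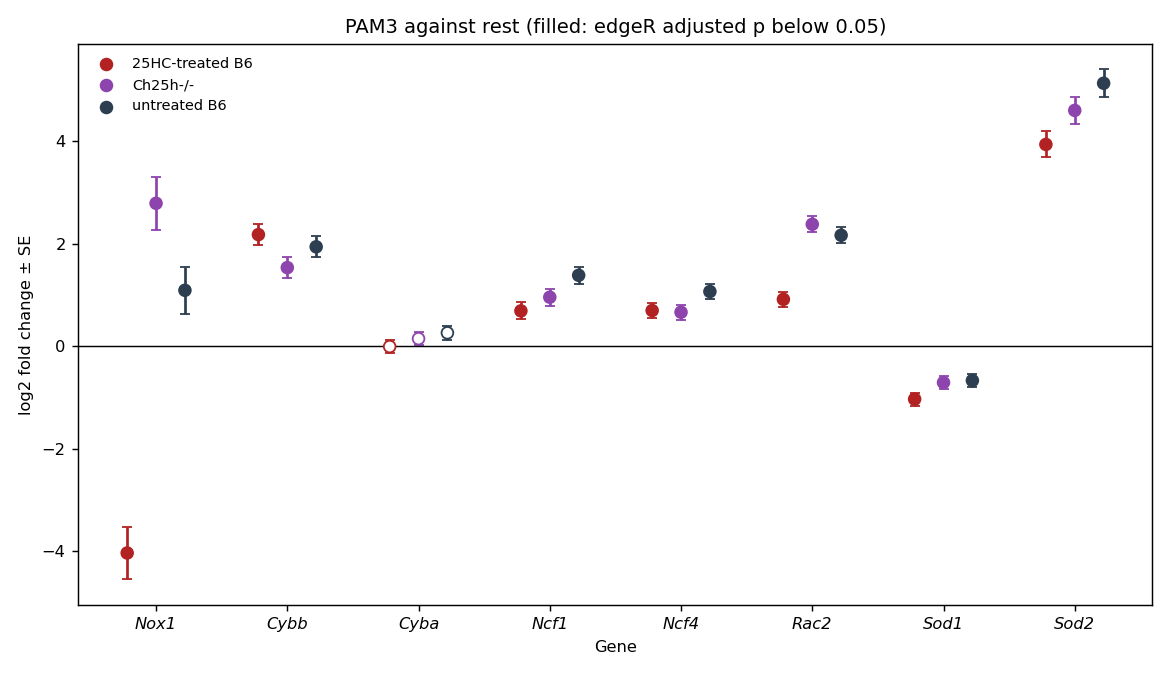
Log2 fold change of each gene with PAM3 against rest, with bars of 1 SE, in 25HC-treated B6, Ch25h-/- and untreated B6. Filled points passed an adjusted p of 0.05. Sod2 has the largest rise in each background, between 3.94 and 5.14, and Nox1 lies above 0 in Ch25h-/- and untreated B6 and at -4.03 after 25HC.

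The cytosolic subunits rose with PAM3 in all 3 backgrounds. Rac2 encodes a GTPase of the complex. It held 1506, 2178 and 2086 CPM in untreated B6 with PAM3, against 436, 456 and 392 CPM in untreated B6 at rest. It held 1772, 2247 and 1903 CPM in Ch25h-/- with PAM3, against 351, 413 and 371 CPM in Ch25h-/- at rest. After 25HC it held 916, 1105 and 877 CPM with PAM3, against 558, 487 and 490.0 CPM at rest, still without overlap. The log2 fold changes of Rac2 were 2.17 ± 0.16 in untreated B6 (edgeR adjusted p = 3.57e-08), 2.38 ± 0.16 in Ch25h-/- (1.51e-08) and 0.92 ± 0.15 in 25HC-treated B6 (9.51e-05). Ncf1, the organiser of the cytosolic complex, held 1229, 1258 and 1302 CPM in untreated B6 with PAM3, against 424, 571 and 454 CPM at rest. After 25HC it held 785, 939 and 725 CPM with PAM3, against 548, 478 and 491 CPM at rest. Its log2 fold change was 1.39 ± 0.17 in untreated B6, 0.96 ± 0.17 in Ch25h-/- and 0.69 ± 0.17 in 25HC-treated B6, with edgeR adjusted p between 5.53e-06 and 0.00229. Ncf4, which encodes the p40phox subunit, averaged 282 ± 25.8 CPM with PAM3 and 134 ± 18.5 CPM at rest in untreated B6, and rose by 1.07, 0.67 and 0.70 on the log2 scale in untreated B6, Ch25h-/- and 25HC-treated B6 (edgeR adjusted p = 1.85e-05, 0.00113 and 0.000813). Gtf2ird2, the overlapping neighbour of Ncf1, moved the other way (-0.50 in untreated B6, edgeR adjusted p = 0.00427).

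The superoxide dismutases went in opposite directions. Sod2 held 1457, 1276 and 1472 CPM in untreated B6 with PAM3, against 44.8, 33.5 and 41.4 CPM in untreated B6 at rest, a 35.2-fold rise (log2 fold change 5.14 ± 0.27, edgeR adjusted p = 1.69e-09). In Ch25h-/- it held 1187, 767 and 1131 CPM with PAM3, against 45.6, 40.5 and 40.7 CPM at rest (24.3-fold, edgeR adjusted p = 4.35e-09). After 25HC it held 1136, 1277 and 1106 CPM with PAM3, against 105, 46.6 and 77.5 CPM at rest (15.4-fold, edgeR adjusted p = 1.66e-08). The resting values after 25HC varied most between mice, and mouse 2 lay near the untreated libraries. Sod1 fell in all 3 backgrounds. It held 65.2, 84.9 and 94.0 CPM in untreated B6 with PAM3, against 117, 143 and 128 CPM in untreated B6 at rest, and its log2 fold changes were -0.67 ± 0.13 in untreated B6, -0.71 ± 0.13 in Ch25h-/- and -1.03 ± 0.13 in 25HC-treated B6 (edgeR adjusted p = 0.000305, 0.000207 and 7.01e-06). No Sod1 library with PAM3 reached a library at rest of the same background.

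The stretches from 250 bases before to 50 bases after the start of transcription were read for the members from the RefSeq promoter table for GRCm38.p6, in which 6 of 8 members were matched and Ncf4 and Rac2 were not. Sequences of 4 of them are printed because these genes rose with PAM3 in untreated cells and differ in what 25HC did to them. Capitals mark bases inside a match, on either strand, to GGGNNNNNCC, a short form of the NF-kB binding pattern, or to GAAANNGAAA, a short form of the interferon-stimulated response element. Each sequence runs 5′ to 3′ on the strand of its gene.
Sod2, chr17:13007589-13007888, plus strand: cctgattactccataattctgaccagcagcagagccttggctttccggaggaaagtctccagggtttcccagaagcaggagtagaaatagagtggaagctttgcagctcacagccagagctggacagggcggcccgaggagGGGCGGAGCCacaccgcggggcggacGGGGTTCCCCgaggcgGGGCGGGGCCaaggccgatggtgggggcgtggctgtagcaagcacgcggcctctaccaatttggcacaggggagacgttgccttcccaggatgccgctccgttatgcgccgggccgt
Cybb, chrX:9469275-9469574, minus strand: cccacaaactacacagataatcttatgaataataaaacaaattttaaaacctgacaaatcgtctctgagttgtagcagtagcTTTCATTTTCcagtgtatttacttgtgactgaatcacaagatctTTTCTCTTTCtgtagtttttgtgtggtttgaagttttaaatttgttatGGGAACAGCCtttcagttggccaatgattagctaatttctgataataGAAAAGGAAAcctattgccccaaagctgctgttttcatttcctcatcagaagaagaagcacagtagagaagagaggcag
Ncf1, chr5:134229576-134229875, minus strand: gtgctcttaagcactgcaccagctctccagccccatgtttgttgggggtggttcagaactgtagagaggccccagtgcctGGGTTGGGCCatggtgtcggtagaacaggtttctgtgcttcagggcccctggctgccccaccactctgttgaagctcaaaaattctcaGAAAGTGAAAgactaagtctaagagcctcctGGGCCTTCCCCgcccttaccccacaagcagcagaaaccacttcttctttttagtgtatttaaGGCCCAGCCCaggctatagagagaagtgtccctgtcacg
Nox1, chrX:134111805-134112104, minus strand: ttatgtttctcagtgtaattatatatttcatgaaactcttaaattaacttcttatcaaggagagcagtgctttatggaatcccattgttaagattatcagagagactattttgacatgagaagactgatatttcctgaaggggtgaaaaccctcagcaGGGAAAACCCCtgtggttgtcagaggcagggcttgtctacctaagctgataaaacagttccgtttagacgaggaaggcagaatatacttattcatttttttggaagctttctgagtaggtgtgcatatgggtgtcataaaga

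GGGNNNNNCC occurs in 50.8% of the 32851 promoters of the table and in 6 of the 6 matched members. It is present 3 times in Sod2, 4 times in Ncf1 with matches that overlap, once in Cybb and in 2 overlapping places in Nox1. Cyba, which passed no test of PAM3, has 5 matches, some of which overlap, and Sod1, which fell with PAM3, has 1. GAAANNGAAA occurs in 3.4% of the promoters and in 2 of the 6 members, with 3 matches in Cybb and 1 in Ncf1. A match describes the letters only and was not tested as a binding site.

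Setting 25HC-treated against untreated B6, both with PAM3, addresses what the oxysterol does to the stimulated state. The catalytic core of the phagocyte oxidase passed no test, whereas the GTPase gene Rac2, the organiser subunit, Nox1 and Sod1 were lower. In all, 4 of 8 genes passed, each lower with 25HC, in a comparison in which 45.1% of tested genes passed (21.5% higher and 23.6% lower). The 4 of 8 called is a share near that of all tested genes. The median log2 fold change was -0.30 over the 8 genes and -0.04 over all tested genes. Without regard to sign, the median was 0.30 over the 8 genes and 0.43 over all tested genes. Nox1 averaged 1.15 ± 0.22 CPM in 25HC-treated and 9.29 ± 0.49 CPM in untreated cells (SD, n = 3 each), 8.03-fold lower, and every 25HC library lay below every untreated one (log2 fold change -3.00 ± 0.49, edgeR adjusted p = 0.000188). Cstf2 was at 32.7 ± 1.42 CPM in 25HC-treated and 41.2 ± 2.29 CPM in untreated cells (-0.33 ± 0.31, edgeR adjusted p = 0.402). Rac2 averaged 966 ± 122 CPM in 25HC-treated and 1923 ± 364 CPM in untreated cells, 1.99-fold lower and without overlap (-0.99 ± 0.15, edgeR adjusted p = 8.89e-05). Ncf1 averaged 817 ± 110 CPM in 25HC-treated and 1263 ± 36.6 CPM in untreated cells, again without overlap (-0.63 ± 0.17, edgeR adjusted p = 0.00615). Sod1 was at 61.3 to 67.8 CPM in 25HC-treated and 65.2 to 94.0 CPM in untreated cells, so that the groups overlapped (-0.34 ± 0.13, edgeR adjusted p = 0.0375). The Sod1 call was lost without replicate 2 or 3 of the untreated or replicate 1 or 3 of the 25HC-treated PAM3 libraries (log2 fold changes of -0.22 to -0.33, edgeR adjusted p between 0.0962 and 0.183), without the filter on low counts (0.0588), with only the groups compared in the fit (0.0819), and without replicate 2 of every group (0.0716).

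The other members gave these values with 25HC and PAM3. Cybb averaged 6108 ± 291 CPM in 25HC-treated and 5390 ± 1131 CPM in untreated cells, and the 95% interval of its log2 difference ran from -0.21 to 0.57. For Cyba the interval was -0.31 to 0.21, for Ncf4 -0.13 to 0.45 and for Sod2 -0.70 to 0.18. Sod2 passed, at -0.39 (edgeR adjusted p = 0.0300), when replicate 2 of every group was left out. Neutrophil markers without Csf3r summed to 12.7 to 46.9 CPM in 25HC-treated and 2.68 to 5.08 CPM in untreated cells with PAM3, while all 10 summed to 174.7 to 213.4 CPM and 204.3 to 213.9 CPM. Their part in the results was not tested, nor was that of the macrophage markers, which were lower with 25HC.

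At rest, 25HC raised members of 3 kinds, a catalytic subunit, a dismutase and a cytosolic subunit. Nox1, Sod2 and Ncf4 rose, 3 of 8 genes, where 26.2% of tested genes passed (14.8% higher and 11.4% lower). The median log2 fold changes were 0.24 over the 8 genes and -0.01 over all. Without regard to sign, the medians were 0.24 over the 8 genes and 0.32 over all tested genes. Nox1 held 28.1, 10.7 and 18.1 CPM in 25HC-treated cells, against 6.99, 2.41 and 3.82 CPM in untreated cells, 4.35-fold higher and without overlap (log2 fold change 2.12 ± 0.47, edgeR adjusted p = 0.00479). It was between 1.72, without 25HC replicate 1, and 2.61, without untreated replicate 1, when single libraries were left out, and passed each time. Cstf2 was at 56.6 ± 13.7 CPM in 25HC-treated and 36.1 ± 14.9 CPM in untreated cells (0.65 ± 0.31, edgeR adjusted p = 0.136). Sod2 held 105, 46.6 and 77.5 CPM with 25HC, against 44.8, 33.5 and 41.4 CPM in untreated cells, where the lowest 25HC library lay just above the highest untreated one (0.94 ± 0.23, edgeR adjusted p = 0.00829). Ncf4 averaged 194 ± 27.2 CPM in 25HC-treated and 134 ± 18.5 CPM in untreated cells (0.53 ± 0.15, edgeR adjusted p = 0.0162). Without 25HC replicate 1, Sod2 was at 0.63 and missed the threshold (edgeR adjusted p = 0.0645), as did Ncf4 (0.105), which left 1 of 8 genes, and Ncf4 was also lost without untreated replicate 3 (0.0713). Both were lost with only the groups compared in the fit (edgeR adjusted p = 0.0625 for Sod2 and 0.0533 for Ncf4). Intervals of the log2 difference were -0.45 to 0.33 for Cybb, -0.04 to 0.48 for Cyba, -0.26 to 0.39 for Ncf1, -0.04 to 0.55 for Rac2 and -0.22 to 0.27 for Sod1. Cyba passed (edgeR adjusted p = 0.0494) when replicate 2 of every group was left out. Neutrophil markers without Csf3r summed to 3.22 to 3.82 CPM in 25HC-treated and 4.67 to 6.34 CPM in untreated cells at rest.

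**Figure D3:**
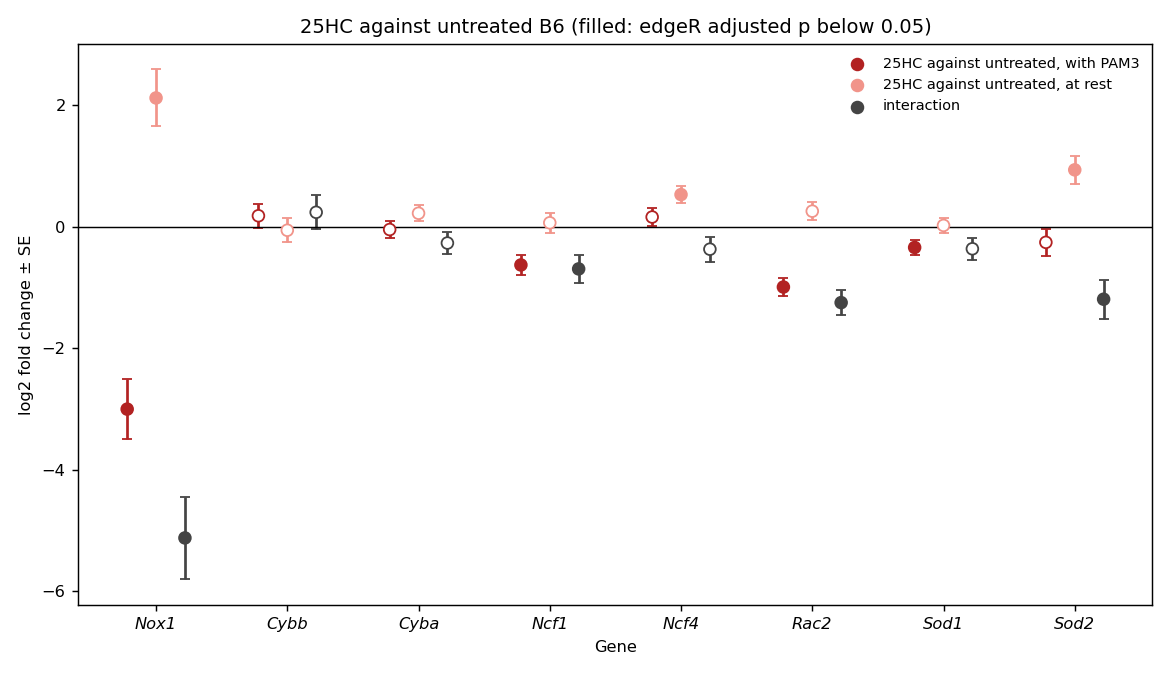
Log2 fold change of each gene with 25HC against untreated B6, with PAM3 and at rest, with bars of 1 SE. The interaction, the PAM3 response of 25HC-treated minus that of untreated B6, is drawn beside them. Filled points passed an adjusted p of 0.05. Nox1 lies at -3.00 with 25HC in the presence of PAM3, at 2.12 with 25HC at rest and at -5.13 in the interaction.

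The interaction term, the PAM3 response of 25HC-treated minus that of untreated B6, tests whether 25HC changed the response. It was negative and passed in 4 of 8 genes, where 28.3% of tested genes passed (12.5% higher and 15.8% lower). For Nox1 it was -5.13 ± 0.68 (edgeR adjusted p = 0.000267), for Rac2 -1.25 ± 0.21 (edgeR adjusted p = 0.00115), for Sod2 -1.19 ± 0.32 (edgeR adjusted p = 0.0137) and for Ncf1 -0.69 ± 0.23 (edgeR adjusted p = 0.0382), each with the same sign in 3 of 3 mice. These 4 differed in the tests of 25HC within each state, which do not themselves test a difference between states. Nox1 was 4.35-fold higher with 25HC at rest and 8.03-fold lower with 25HC and PAM3. Rac2 and Ncf1 passed the test of 25HC with PAM3 and not at rest. At rest Rac2 was at 0.26 ± 0.15 with 25HC, without overlap (edgeR adjusted p = 0.214), and Ncf1 at 0.07 ± 0.17, with overlap (0.798). Sod2 passed the test of 25HC at rest and not with PAM3. The call of the Ncf1 term was lost, at terms of -0.61 to -0.72, without the filter on low counts (edgeR adjusted p = 0.0859) and without any 1 of 8 of the 12 libraries (0.0627 to 0.0995), which were replicates 1 and 3 of each group at rest and of 25HC-treated B6 with PAM3, and replicates 2 and 3 of untreated B6 with PAM3. Cybb, with an interval of -0.31 to 0.79, Cyba, with -0.64 to 0.10, Ncf4, with -0.78 to 0.04, and Sod1, with -0.71 to -0.01, did not pass. The interval of Sod1 leaves out 0, but its edgeR p was 0.0588 before adjustment, since the intervals are narrower than the F test implies. Ncf4 passed, at -0.58 (edgeR adjusted p = 0.0163), without replicate 2 of every group, and Sod1, at -0.50 (0.0203), without replicate 1 of untreated B6 with PAM3. Cstf2 had a term of -0.98 ± 0.44 (edgeR adjusted p = 0.105).

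Loss of Ch25h, which encodes an enzyme that makes 25HC, gave no call in the group. The amount of 25HC in the cells was not measured in these data. At rest 0 of 8 genes passed in edgeR and 1 had an unadjusted p under 0.05, beside 1 of 12741 genes called (0.00785%) and 704 with an unadjusted p under 0.05. With the mouse number as a replicate block, 0 of 8 and 14 of all genes were called at rest. With PAM3 0 of 8 passed and 3 had an unadjusted p under 0.05, beside 22 genes called (0.173%, with 0.0471% higher and 0.126% lower) and 1784 with an unadjusted p under 0.05. The DESeq2 Wald test called 0 of the 8 in both. Cyba averaged 309 ± 10.6 CPM in Ch25h-/- and 373 ± 52.4 CPM in untreated B6 at rest, and 343 ± 9.53 CPM in Ch25h-/- and 448 ± 61.3 CPM in untreated B6 with PAM3 (log2 fold change -0.27 and -0.39, edgeR adjusted p = 0.898 and 0.190), and the libraries of the 2 genotypes did not overlap in either state. With PAM3 the Ch25h-/- libraries of Ncf1, Ncf4 and Sod2 also all lay below those of untreated B6, at log2 fold changes of -0.41, -0.35 and -0.45 (edgeR adjusted p = 0.273, 0.280 and 0.386). How many of all tested genes separate in this way was not counted, so the separation is not read as an effect of genotype on the group. The 95% interval was -0.71 to 0.07 for Cybb, -0.25 to 0.33 for Rac2, -0.21 to 0.29 for Sod1 and -0.52 to 1.24 for Nox1. At rest Nox1 was at 1.68 ± 1.21 CPM in Ch25h-/- and 4.41 ± 2.34 CPM in untreated B6 (log2 fold change -1.34 ± 0.51, edgeR adjusted p = 0.835), with overlapping libraries, and at -0.86 without the Ch25h-/- replicate 2 that holds 4 counts. Neutrophil markers without Csf3r summed to 12.8 to 48.8 CPM in Ch25h-/- and 4.67 to 6.34 CPM in untreated B6 at rest, and their part in these values was not tested. The difference between genotypes in the PAM3 response passed for 0 of 8 genes and 0 of all genes (0%) in edgeR, with 1 and 598 at an unadjusted p under 0.05, and for 0 of 8 and 2 of all genes in DESeq2. These genotype comparisons use the same untreated B6 libraries as those of 25HC, so the values stand side by side and are not independent.

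Ordered by mean CPM, the 6 groups fell in a different order for each kind of gene. For Nox1 the order from high to low was 25HC at rest, Ch25h-/- with PAM3, untreated B6 with PAM3, untreated B6 at rest, Ch25h-/- at rest, and 25HC with PAM3. Of these neighbours the libraries of untreated B6 with PAM3 and at rest did not overlap, and all the others did. For Rac2 and Ncf1 the 25HC group with PAM3 lay between the other PAM3 groups and the groups at rest. For Rac2 its libraries, at 877 to 1105 CPM, did not overlap with any other group, whereas for Ncf1 the Ch25h-/- PAM3 replicate 2, at 737 CPM, fell within its range of 725 to 939 CPM. For Cybb and Sod2 all 9 PAM3 libraries lay above all 9 libraries at rest, and for Sod1 all 9 lay below. For Ncf4 the PAM3 libraries lay above those at rest within each background, but the lowest in Ch25h-/- with PAM3, at 206 CPM, lay below the highest with 25HC at rest, at 224 CPM. Cyba ranged only from 299 to 512 CPM over the 18 libraries.

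Ratios between members within a library do not depend on its depth. The ratio of Sod2 to Sod1, as CPM per kb, was 2.00 ± 0.083 with PAM3 and 0.0636 ± 0.0243 at rest in 25HC-treated B6, 1.36 ± 0.39 with PAM3 and 0.0343 ± 0.00587 at rest in Ch25h-/-, and 1.93 ± 0.44 with PAM3 and 0.0343 ± 0.00814 at rest in untreated B6. The PAM3 mean was thus 31.4, 39.8 and 56.3 times that at rest, and Sod2 transcripts went beyond those of Sod1 in 8 of 9 PAM3 libraries on this scale. With the union of exons as length, which was chosen after the data were seen, the ratio in untreated B6 was 7.01 with PAM3 and 0.125 at rest. The ratio of Cybb to Cyba was 2.25 ± 0.42 in 25HC-treated B6, 1.97 ± 0.47 in Ch25h-/- and 1.95 ± 0.71 in untreated B6 with PAM3, against 0.483 ± 0.0361, 0.759 ± 0.171 and 0.594 ± 0.063 at rest. The 2 genes of the membrane core thus changed places as the more abundant transcript per length in every PAM3 library.

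The ratio of Ncf1 to Ncf4 separated 25HC-treated from untreated cells in both states. It was 1.39 ± 0.11 in 25HC-treated and 2.42 ± 0.18 in untreated B6 with PAM3, and 1.41 ± 0.092 in 25HC-treated and 1.93 ± 0.12 in untreated B6 at rest. The highest 25HC-treated library, at 1.51, lay below the lowest untreated B6 library, at 1.80. In Ch25h-/- the ratio was 2.31 ± 0.34 with PAM3 and 1.91 ± 0.083 at rest. The ratio of Cybb to Nox1 was 2928 ± 564 with PAM3 and 42.9 ± 16.1 at rest in 25HC-treated B6, and 311 ± 48.3 with PAM3 and 212 ± 120 at rest in untreated B6. In Ch25h-/- it was 210.3 ± 94.8 with PAM3, and 288, 3578 and 315 in the 3 libraries at rest, where the second rests on 4 counts of Nox1. With 3 libraries a group an exact permutation test cannot go below a two-sided p of 0.10, so the ratios are given as descriptions.

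**Figure D4:**
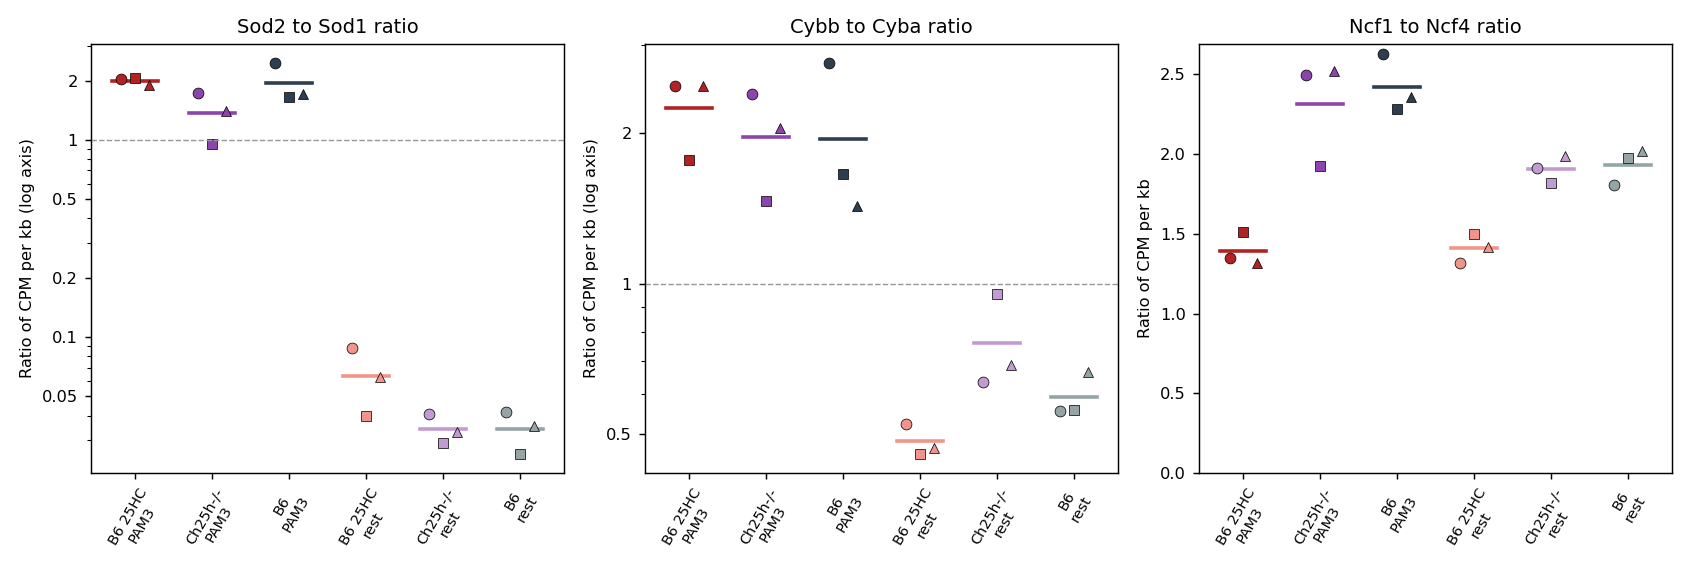
Ratios of CPM per kb between pairs of members in each library, by group, with groups in the order 25HC-treated B6, Ch25h-/- and untreated B6 with PAM3, then the same at rest. Sod2 to Sod1 and Cybb to Cyba have log axes, and Ncf1 to Ncf4 has a linear axis. Points are libraries and bars group means. Sod2 to Sod1 lies between 0.959 and 2.44 with PAM3 and at 0.0883 or below at rest, and Ncf1 to Ncf4 lies at 1.51 or below in the 6 libraries that received 25HC.

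Other genes of the same processes were read from 3 lists grouped by role. Of 19 genes for other oxidase subunits, regulators and relatives, 12 were tested. In untreated B6 with PAM3, 6 of the 12 were higher and 1 lower than at rest, with a median log2 fold change of 0.36, a share near the 62.1% of all tested genes that passed. The Rac exchange factor Vav1 rose by 1.76, the GTPase inhibitor Arhgdib by 1.69, the kinase Prkcb, which phosphorylates p47phox, by 2.00 and the exchange factor Prex1 by 1.11 (edgeR adjusted p between 3.05e-08 and 1.73e-05). The exchange factor Dock2 fell by 0.62 (edgeR adjusted p = 0.00158). With 25HC and PAM3 against PAM3 alone 6 of the 12 were lower and 2 higher, with a median of -0.42, beside 23.6% of all tested genes lower and 21.5% higher. Vav1 was at 369 ± 39.7 CPM in 25HC-treated and 739 ± 99.4 CPM in untreated cells. It, Arhgdib (-0.88), Dock2 (-0.89), Prex1 (-0.80), Prkcb (-0.68) and BC017643 (-0.56), an older symbol of Cybc1, whose product supports the membrane core, fell with edgeR adjusted p between 1.45e-05 and 0.00591. The proton channel Hvcn1 rose to 108 ± 3.01 CPM in 25HC-treated cells, against 70.4 ± 9.42 CPM in untreated cells with PAM3 (0.62 ± 0.20, edgeR adjusted p = 0.0195). The Rac GTPase gene Rac1 did not pass, at 356 ± 13.9 CPM in 25HC-treated and 436 ± 38.0 CPM in untreated cells with PAM3 (-0.29 ± 0.12, edgeR adjusted p = 0.0584). Nor did Rac1 pass with PAM3 against rest in untreated B6 (0.21 ± 0.12, edgeR adjusted p = 0.128). At rest 0 of the 12 passed with 25HC, beside 26.2% of all tested genes. The activator of NOX1, Noxa1, held 0 to 5 counts per library and was not tested, nor was Nox4, at 0 to 1.

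Of 19 genes that remove superoxide and peroxide or keep glutathione and thioredoxin reduced, 18 were tested. PAM3 raised 8 and lowered 4 in untreated B6, a share near the 62.1% of all tested genes that passed. Prdx5 (3.84), Gsr (2.71) and Prdx3 (1.14) rose, and Gpx1 (-1.92) and Cat (-0.77), the genes of glutathione peroxidase and catalase, fell (edgeR adjusted p between 1.15e-08 and 0.000412). With 25HC and PAM3 against PAM3 alone 8 were higher and 5 lower, beside 45.1% of all tested genes that passed. Prdx1 (2.17), Srxn1 (2.11), Txnrd1 (1.98), Cat (1.19) and Prdx6 (1.16) rose, and Gpx1 (-0.64), Prdx5 (-0.60) and Ccs (-0.36), which encodes the copper chaperone of SOD1, fell (edgeR adjusted p between 6.66e-07 and 0.0353). At rest, where 26.2% of all tested genes passed, 25HC raised 5 and lowered 0, among them Txnrd1 (1.35), Srxn1 (1.21) and Prdx5 (1.02). The medians were 0.38, 0.02 and 0.26 in these 3 comparisons, beside 0.00, -0.04 and -0.01 over all tested genes. Sod3, the extracellular dismutase, held 0 to 52 counts and was not tested.

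All 10 genes of NADPH supply were tested. PAM3 raised 5 and lowered 1 in untreated B6, again near the 62.1% of all tested genes, with malic enzyme Me1 at 2.76 (edgeR adjusted p = 0.000446) and the mitochondrial transhydrogenase Nnt at -0.76 (6.72e-05). With 25HC and PAM3 against PAM3 alone 2 were higher and 4 lower, beside 45.1% of all tested genes that passed, with Pgd, of the pentose phosphate pathway, at 0.72 (edgeR adjusted p = 0.00343), Idh1 at -2.19 (1.18e-06) and Nnt at -1.34 (1.55e-06). At rest 25HC raised 2 and lowered 2, beside 26.2% of all tested genes that passed, with Pgd at 0.57 (edgeR adjusted p = 0.0251) and Idh1 at -1.13 (0.000862). The medians were 0.40, -0.33 and 0.26 in these 3 comparisons. In Ch25h-/- against B6, 0 of the 40 tested genes of the 3 lists were called in either state.

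**Figure D5:**
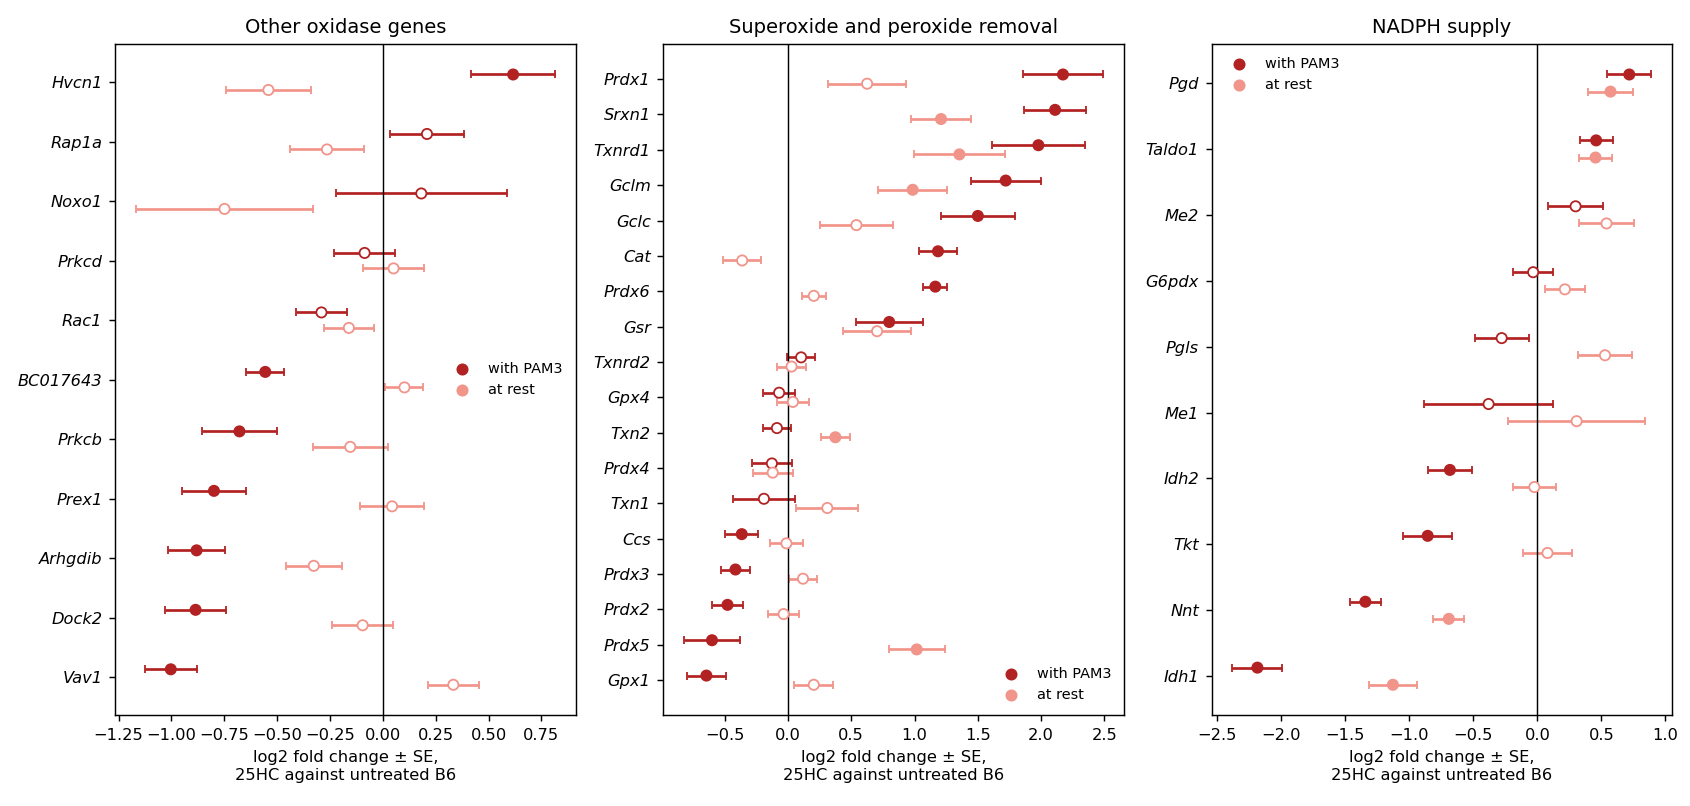
Log2 fold change with 25HC against untreated B6, with PAM3 and at rest, of tested genes of the 3 lists (other oxidase genes, peroxide and superoxide removal, NADPH supply). Filled points passed an adjusted p of 0.05. With PAM3, 6 oxidase genes are filled and below 0, while Prdx1 and Srxn1 lie above 2.

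Genes with the most similar pattern were ranked by Pearson correlation of log2 CPM over the 18 libraries, which share condition and depth, among genes with a mean of at least 5 CPM. Within the group, Cybb and Sod2 had r = 0.96, Rac2 and Ncf1 0.92, and Cybb and Sod1 -0.94. Nox1 had no correlation with another member beyond 0.34, which was with Rac2. The genes most like Nox1 were Slc35c2 (0.94), Plcg2 (0.93) and Lasp1 (0.92), those most like Rac2 included Dtx2 and Pik3r5 (0.99 each), and those most like Cybb were Slco3a1, Rasgrf1 and Irak3 (0.99 each). For Ncf1 they were Abca7 (0.98), Usb1 and Rras (0.97 each), and for Ncf4 Mcemp1 (0.99), Whamm (0.98) and Rab20 (0.97). Sod2 was closest to Bcl2a1a, Gpd2 and Rfwd2 (0.99 each), of which Bcl2a1a has near-identical copies and is uncertain. Sod1 was closest to Bmyc, C5ar2 and Kdm2b (0.98 each) and Cyba to Mfsd5 (0.94), Frmd8 (0.92) and Atg4d (0.89).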

How the data were processed

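The deposited values are raw read counts per gene for 18 libraries, made by the authors. Per the submitters' processing notes, FastQC 0.11.9, GSNAP, featureCounts of Subread 1.5.2, edgeR 3.26.8 and the build GRCm38 (mm10) were used, and per the labels' protocols the libraries were Illumina TruSeq stranded and polyadenylated. Whether counting used strand, how multiply mapping reads were treated and which annotation release was used are not stated in the labels.

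Counts were fitted in edgeR 4.0.16 (limma 3.58.1, R 4.3.3) with all 18 libraries, filterByExpr, TMM factors, a mean per group and two-sided robust quasi-likelihood F tests. P-values were adjusted by Benjamini-Hochberg over 12741 tested genes, in each of 9 comparisons, and a gene was called at an adjusted p below 0.05. Standard errors are the absolute log2 fold change over the square root of F, and 95% intervals are the value ± 1.96 SE. These intervals are narrower than the F test implies, so they can leave out 0 where the unadjusted p is above 0.05. CPM use library totals times TMM factors, and log2 CPM a prior count of 2. CPM per kb use the APPRIS principal transcript of GENCODE M21. Alternatives were DESeq2 1.42.0 (size factors, Wald test), no filter, 1 CPM in 3 libraries, only the groups compared, a replicate block, and libraries left out. Tables and figures were made with Python 3.11.15, numpy 2.4.6, pandas 2.3.3 and matplotlib 3.10.9.

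Tested on simulated data for 25HC against untreated B6 with PAM3 (12566 genes), the fit recovered 77 of 100 genes changed by 1 on the log2 scale and 94 of 100 changed by 2, with 8 false calls. The simulation changed only these genes, drawn from those with higher counts, in 1 group, and drew libraries independently. In the real comparison 45.1% of tested genes passed, so these rates may not hold for it. Per the labels, libraries of a genotype with the same number come from 1 mouse. Same-numbered deviations correlated with r = 0.448, 0.581 and 0.348 between 25HC-treated and untreated B6 at rest and 0.406, 0.377 and -0.162 with PAM3, the last under the limit of 0.1 used for pairing. Between Ch25h-/- and B6 at rest r was 0.574, 0.705 and 0.327, each over that limit. The labels do not say what a number shared between genotypes marks. The number entered only as a block in an alternative fit, and the main fit holds no pairing. Named genes are the 8 members, the 3 lists and the 3 genes most like each member, and values of a few genes under this rule are not reported here. Members and lists were chosen with earlier results of these data known. P-values measure the spread among the 3 libraries of a group.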

Additional observations from a re-analysis of the deposited data

Results flagged for a closer look

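In 4 genes the PAM3 response of 25HC-treated B6 differed from that of untreated B6, by the interaction term of the edgeR quasi-likelihood fit. The term, 25HC-treated minus untreated on the log2 scale, was -5.13 for Nox1 (edgeR adjusted p = 0.000267), -1.25 for Rac2 (0.00115), -1.19 for Sod2 (0.0137) and -0.69 for Ncf1 (0.0382), with the same sign in 3 of 3 mice for each. Beside these 4 of 8 genes, 28.3% of all tested genes passed. For Nox1 the responses themselves went in opposite directions, at -4.03 after 25HC and 1.09 without it. The rise of 1.09 lay close to the threshold (edgeR adjusted p = 0.0488), and its call was lost in 8 of 13 refits. Among the 4 interaction terms, that of Ncf1 lay closest to the threshold. Its call was lost in 8 of the 12 fits that left out 1 library of these groups, in which the term was -0.61 to -0.72.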

How the results depend on the processing

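The 72 log2 fold changes of the members, 8 genes in 9 comparisons, were refitted 1032 times. In 956 refits direction and side of the threshold were kept, in 29 a call was lost, in 7 one was gained, and in 40 the sign turned, in each case for a value that passed neither before nor after. The number of members called moved beyond 1.5 times in 25HC against untreated B6 at rest, where it was 1 with only the groups compared in the fit, which uses fewer samples, and 1 to 3 when single libraries were left out. With the mouse as a replicate block, the numbers of members called were 3, 4, 7, 7, 7, 0, 0, 4 and 0 in the 9 comparisons, as without it, and no member's call changed. Between genotypes, where the labels do not say what a shared number marks, the block on the number gave 14 genes called in place of 1 at rest. With PAM3 it gave 368 in place of 22, and same-numbered libraries there had r = 0.322, 0.459 and 0.0949, the last under the limit of 0.1 used for pairing.

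Signs turned as follows. Without the filter on low counts, Sod1 was at -0.0381 with 25HC at rest, Cyba at 0.0337 with PAM3 after 25HC, Ncf1 at -0.0520 and Ncf4 at -0.0235 in Ch25h-/- at rest, and Sod1 at 0.0275 in the genotype interaction. With DESeq2 size factors and with the DESeq2 Wald test, Sod1 was at -0.00402 and -0.00425 with 25HC at rest. With only the groups compared, Cyba was at 0.00233 with PAM3 after 25HC and Sod1 at 0.0204 in the genotype interaction. Without replicate 2 of every group, Cybb was at 0.0720 with 25HC at rest and at -0.0194 in Ch25h-/- at rest, and Ncf4 at -0.0221 there. When single libraries were left out, the ranges with 25HC at rest were -0.198 to 0.00586 for Cybb, -0.0186 to 0.203 for Ncf1 and -0.0428 to 0.100 for Sod1. With 25HC and PAM3 the range for Cyba was -0.182 to 0.0304, and with PAM3 after 25HC -0.138 to 0.0680. In Ch25h-/- against B6 at rest the ranges were -0.0795 to 0.178 for Cybb, -0.129 to 0.156 for Ncf1, -0.140 to 0.165 for Ncf4, -0.00801 to 0.157 for Sod1 and -0.0284 to 0.174 for Sod2. With PAM3 they were -0.113 to 0.135 for Rac2 and -0.0988 to 0.155 for Sod1, and in the genotype interaction -0.177 to 0.0765 for Sod1. The cause was not tested.

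Over all genes, calls in 25HC against untreated B6 at rest numbered 3334, 5103 without replicate 2 of every group, and 1524 to 3801 when single libraries were left out, with 2097 without untreated replicate 3 and 1524 and 1612 without 25HC replicates 1 and 3. In Ch25h-/- against B6 at rest they numbered 1, with 21 by DESeq2, 0 with only the groups compared, 14 with the replicate block, 2 without replicate 2 of every group and 0 to 4 without single libraries (4 and 0 without Ch25h-/- replicates 1 and 3). With PAM3 they numbered 22, with 404 by DESeq2, 13 without the filter, 0 with only the groups compared, 384 without replicate 2 of every group and 1 to 254 without single libraries (3, 85 and 3 without B6 replicates 1, 2 and 3, and 254, 3 and 1 without those of Ch25h-/-). The 25HC by PAM3 interaction gave 3611, and 2288 to 4481 without single libraries (2351 and 2288 without replicates 1 and 3 of 25HC with PAM3), and the genotype interaction 0, and 2 by DESeq2. Depth limits Nox1 most, at 4 to 1287 counts per library.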
